A study of Mus musculus with 16 samples.

Results

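The response of epididymal white fat (eWAT) to sunitinib was set against the response of liver, gene by gene. Sunitinib (sutent) is an oral inhibitor of receptor tyrosine kinases. Total RNA of C57BL/6 mice aged 24 weeks was sequenced, and 4 groups of 2 libraries were compared: eWAT of mice given sutent, eWAT of mice given vehicle, liver of mice given sutent and liver of mice given vehicle. The labels name no other genotype, diet or agent and give no dose or duration. The series states 8 mice, 4 per treatment, and holds 16 libraries from 4 tissues. The labels do not tie a library to a mouse or a pool of mice, so the spread behind each p-value is that between libraries and may be technical. Expression was deposited as regularized log2 values (rlog) in 1 table per tissue, which hold no read totals, so the depth of a library is unknown. The sunitinib effect of a gene in a tissue is the mean of its 2 sunitinib libraries minus the mean of its 2 vehicle libraries. The difference reported here is the eWAT effect minus the liver effect, so that a negative value means a lower effect in eWAT. It was computed for the 11831 genes with a mean rlog of at least 3 in both tables, out of 17926 genes that both tables list and 24934 in the whole series. Of the others in both tables, 2719 were under 3 in liver alone, 450 in eWAT alone and 2926 in both tissues. The genes nearest the minimum were Filip1 and Cdr2 just inside, with lower means of 3.0006 and 3.0009 and differences of −0.03 and −0.45, and Ppapdc1b and Tspan5 just outside, with lower means of 2.9989 and 2.9987 and differences of 0.04 and 0.12.

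The kinases that sunitinib blocks include the receptors for vascular endothelial growth factor, which endothelial cells need for growth and survival, and the receptor for macrophage colony-stimulating factor, on which many tissue macrophages depend. Epididymal fat holds macrophages that take up lipid from adipocytes, digest it in lysosomes and carry the receptor Trem2, whereas the resident macrophages of liver are Kupffer cells. Hepatocytes secrete large amounts of protein, and chaperones of the endoplasmic reticulum (ER) are induced there when unfolded protein builds up.

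The tissue labels matched their defining markers. The 20 adipocyte identity genes averaged rlog 14.21 and 14.11 in sunitinib eWAT and 14.20 and 14.01 in vehicle eWAT. The hepatocyte list averaged 14.37 and 14.38 in sunitinib liver and 14.43 and 14.43 in vehicle liver. Epithelial and mesothelial markers moved with treatment in eWAT, while the duct gene Crisp1 was high in sunitinib replicate 1 only. The 20 epithelial genes averaged 7.58 and 7.45 in sunitinib eWAT and 6.22 and 6.71 in vehicle eWAT, and the log2 of their summed level was 12.65 and 12.72 in sunitinib eWAT and 10.98 and 11.69 in vehicle eWAT. Of 21 genes of the epididymal duct, 11 were in the eWAT table, and the log2 of their sum was 12.68 and 7.15 in sunitinib eWAT and 7.13 and 7.04 in vehicle eWAT. Their median level was 1.85 and 1.77 in sunitinib eWAT and 1.76 and 1.77 in vehicle eWAT. The library sunitinib replicate 1 of eWAT stood apart from the other 3. It held Crisp1, a secreted protein of the epididymis, at 12.66, while the other eWAT libraries held it between 5.98 and 6.21. Crisp1 thus made up nearly all of the duct sum in that library. Adam7, another duct gene, was at 5.06 and 5.32 in sunitinib eWAT and 4.73 and 4.76 in vehicle eWAT. The 11 mesothelial genes averaged 7.53 and 7.44 in sunitinib eWAT and 7.07 and 6.99 in vehicle eWAT. Alb, which encodes albumin, was at 10.14 and 10.81 in sunitinib eWAT and 9.93 and 10.50 in vehicle eWAT, where the groups overlapped.

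Macrophage, lysosome, cell cycle and collagen genes held members with a lower effect in eWAT than in liver, led by Trem2 at −1.69 ± 0.12. Fatty acid synthesis, glutathione conjugation and epithelial genes held members with a higher one, led by Fads2 at 1.89 ± 0.37. A smaller set had its larger effect in liver, among them ER chaperones that rose there. Thrsp rose in eWAT and fell in liver. By limma with Benjamini-Hochberg adjustment at 0.05, the difference passed in 467 of 11831 genes (3.95%), of which 333 had a lower effect in eWAT (2.81%) and 134 a higher one (1.13%). Without adjustment, 1292 lower and 932 higher genes of the 11831 had a p under 0.05. Of all 11831 differences, 6215 were negative and 5616 positive. The unadjusted counts and sign counts of gene groups below are to be read beside these. Genes of a group are not independent replicates. The eWAT effect was the larger of the 2 effects in 315 of the 333 lower and in 113 of the 134 higher genes. The liver effect was the larger in 18 lower and 21 higher genes.

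The signs of the 2 effects split the 467 genes further. In 158 of the lower genes the effect was negative in eWAT and positive in liver, and in 124 of the higher genes it was positive in eWAT and negative in liver. The other 185 had the same sign in both tissues. Groups are called apart where both sunitinib libraries lay below, or both above, both vehicle libraries. In eWAT this held for 3266 of all 11831 genes below and 2962 above, and in liver for 2236 below and 2143 above. With 2 libraries per group, groups apart were thus common. Over all 11831 genes the effects had an SD of 0.23 in eWAT and 0.11 in liver, and Pearson's r between them was 0.0187 (Spearman's rho 0.0115), given as a description across genes, which are not independent replicates. In a fit of eWAT alone over the same genes 495 fell (4.18%) and 135 rose (1.14%), together 5.32%. In a fit of liver alone 6 fell (0.0507%) and 13 rose (0.11%), together 0.161%. Of the 467 genes, 375 also passed in eWAT alone, 14 in liver alone and 78 in neither. In both single-tissue fits 1 gene passed, Tk1, with the same sign in each. In bulk tissue, fewer cells of a type and less RNA per cell cannot be told apart.

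Many of the lower genes had a low level in liver. Of the 333 lower genes, 147 had a mean rlog under 5 in liver, as had 24 of the 134 higher genes and 2152 of the 11831 genes tested. The liver effects of such low genes had an SD of 0.05, against 0.11 for genes at 5 or more. The rlog transform shrinks low genes towards their mean. With a minimum mean of 5 in both tables, 168 lower and 96 higher genes passed among 9360. The count of lower genes lay between 127 without liver vehicle replicate 1 and 403 without eWAT sunitinib replicate 2. The count of higher genes lay between 22 without liver sunitinib replicate 3 and 343 without eWAT sunitinib replicate 1, the library with the high Crisp1. Leaving out eWAT vehicle replicate 2 gave 192 lower genes, liver vehicle replicate 2 gave 162, liver sunitinib replicate 3 gave 135 and liver sunitinib replicate 4 gave 199. The higher genes were 73 without eWAT vehicle replicate 1, 292 without eWAT sunitinib replicate 2, 32 and 39 without liver vehicle replicate 1 or 2, and 68 without liver sunitinib replicate 4. Here and below, libraries were left out 1 at a time, and calls named as lost or gained are those under settings other than the replicate block. In all 8 fits that left out 1 library, 116 lower and 16 higher genes passed.

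**Figure D1:**
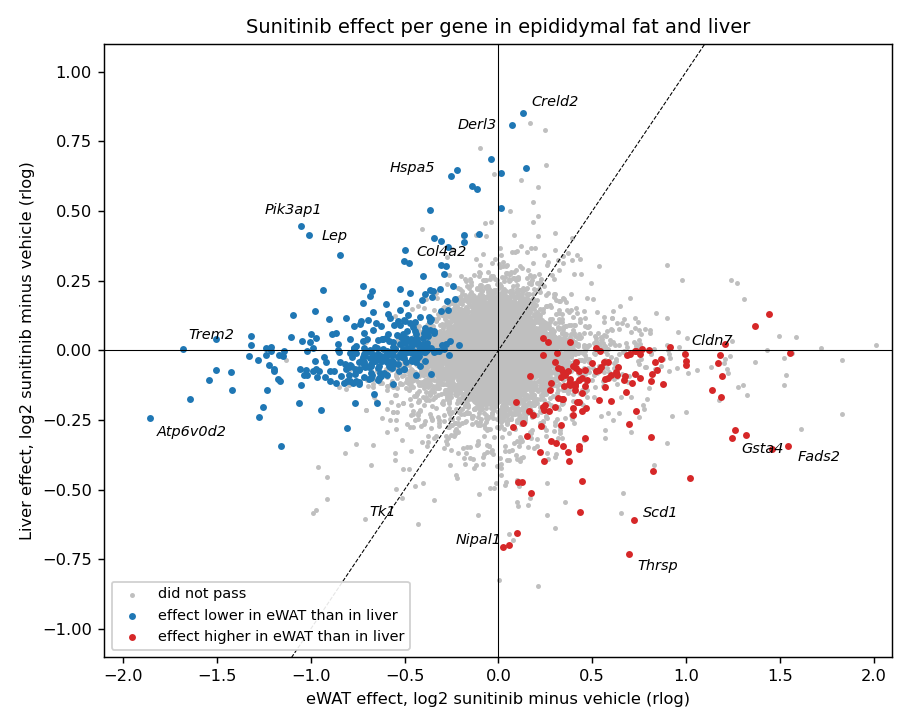
Sunitinib effect of each of the 11831 genes in eWAT (x axis) and in liver (y axis), as log2 sunitinib minus vehicle of rlog values. Blue points mark the 333 genes with a lower effect in eWAT, red points the 134 with a higher one, grey points the genes whose difference did not pass, and the dashed line marks equal effects. Most coloured points spread along the eWAT axis, while Derl3, Creld2, Thrsp and Nipal1 lie far from 0 on the liver axis.

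Many lipid-associated macrophage genes had lower effects in eWAT than in liver. Of the 19 members tested, 11 were lower and 0 higher, with a median difference of −0.59, a median eWAT effect of −0.61 and a median liver effect of −0.01. Over all genes tested the median difference was −0.01. Trem2, the receptor most used to mark this macrophage state, was at rlog 8.75 and 8.54 in sunitinib eWAT, 10.24 and 10.41 in vehicle eWAT, 3.32 and 3.28 in sunitinib liver and 3.31 and 3.29 in vehicle liver. Its eWAT groups were far apart, and its liver libraries lay together near the minimum of 3. The difference was −1.69 ± 0.12 (adjusted p = 0.000794), with effects of −1.68 in eWAT and 0.00 in liver. Tyrobp, the adaptor that passes on its signal, was at 9.92 and 10.05 in sunitinib eWAT, 11.11 and 11.08 in vehicle eWAT, 6.62 and 6.37 in sunitinib liver and 6.39 and 6.52 in vehicle liver. Here too the eWAT groups did not overlap, while the liver groups did, and the difference was −1.15 ± 0.13 (adjusted p = 0.00349).

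Atp6v0d2, a subunit of the proton pump that acidifies lysosomes, stood at 8.10 and 8.09 in sunitinib eWAT, 9.91 and 9.998 in vehicle eWAT, 4.75 and 4.999 in sunitinib liver and 5.08 and 5.16 in vehicle liver. Sunitinib libraries lay below vehicle libraries in both tissues, by more in eWAT, and the difference was −1.62 ± 0.12 (adjusted p = 0.000794). Plin2, which coats lipid droplets in macrophages and hepatocytes alike, was at 12.84 and 12.89 in sunitinib eWAT, 13.85 and 13.89 in vehicle eWAT, 12.92 and 13.11 in sunitinib liver and 12.99 and 12.98 in vehicle liver. The groups were apart in eWAT and overlapped in liver. Its difference was −1.04 ± 0.12 (adjusted p = 0.00327). Lgals3, the lectin galectin-3, differed by −1.22 ± 0.13 (adjusted p = 0.00198). Lipa, which encodes lysosomal acid lipase, had effects of −1.16 in eWAT and −0.34 in liver, and differed by −0.81 ± 0.15. Its call was lost without eWAT vehicle replicate 2, liver vehicle replicate 1 or liver sunitinib replicate 4 (adjusted p from 0.00130 to 0.0857 over 18 alternatives). Apoe, the apolipoprotein of macrophages and hepatocytes, was the 1 member with a positive difference, 0.68 ± 0.19 with a 95% interval of 0.25 to 1.10, and did not pass (adjusted p = 0.0898), though it passed without eWAT sunitinib replicate 2 and with quantile normalization, without the intensity trend, with the robust variance setting and with the spread estimated per tissue (adjusted p from 0.00965 to 0.298 over 18 alternatives). Without eWAT vehicle replicate 2 the median was −0.60 and 6 members passed, and 7 passed without liver vehicle replicate 1 or liver sunitinib replicate 3.

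General macrophage genes went the same way. Of 28 tested, 15 were lower and 0 higher, 27 had a negative difference, and the medians were −0.67 for the difference, −0.74 in eWAT and −0.07 in liver. In eWAT all 28 had both sunitinib libraries below both vehicle libraries. In liver 27 of 28 effects were negative too, but the groups were apart in 7. Cd68, a lysosomal glycoprotein of macrophages, was at 10.09 and 9.88 in sunitinib eWAT, 11.26 and 11.35 in vehicle eWAT, 5.72 and 5.57 in sunitinib liver and 5.56 and 5.64 in vehicle liver. The eWAT groups were well apart and the liver groups overlapped, with a difference of −1.37 ± 0.13 (adjusted p = 0.00124). Mpeg1, which encodes the pore-forming perforin-2, was at 10.08 and 10.26 in sunitinib eWAT, 11.80 and 11.84 in vehicle eWAT, 8.67 and 8.62 in sunitinib liver and 8.63 and 9.01 in vehicle liver. Again the groups were apart in eWAT and overlapped in liver, and the difference was −1.47 ± 0.16 (adjusted p = 0.00302). Clec12a, an inhibitory lectin receptor of myeloid cells, differed by −1.31 ± 0.10 (adjusted p = 0.000794), and Irf8, a transcription factor of the myeloid lineage, by −1.13 ± 0.12 (adjusted p = 0.00237). The count of lower members was 9 without liver vehicle replicate 1 and 9 without liver sunitinib replicate 3.

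**Figure D2:**
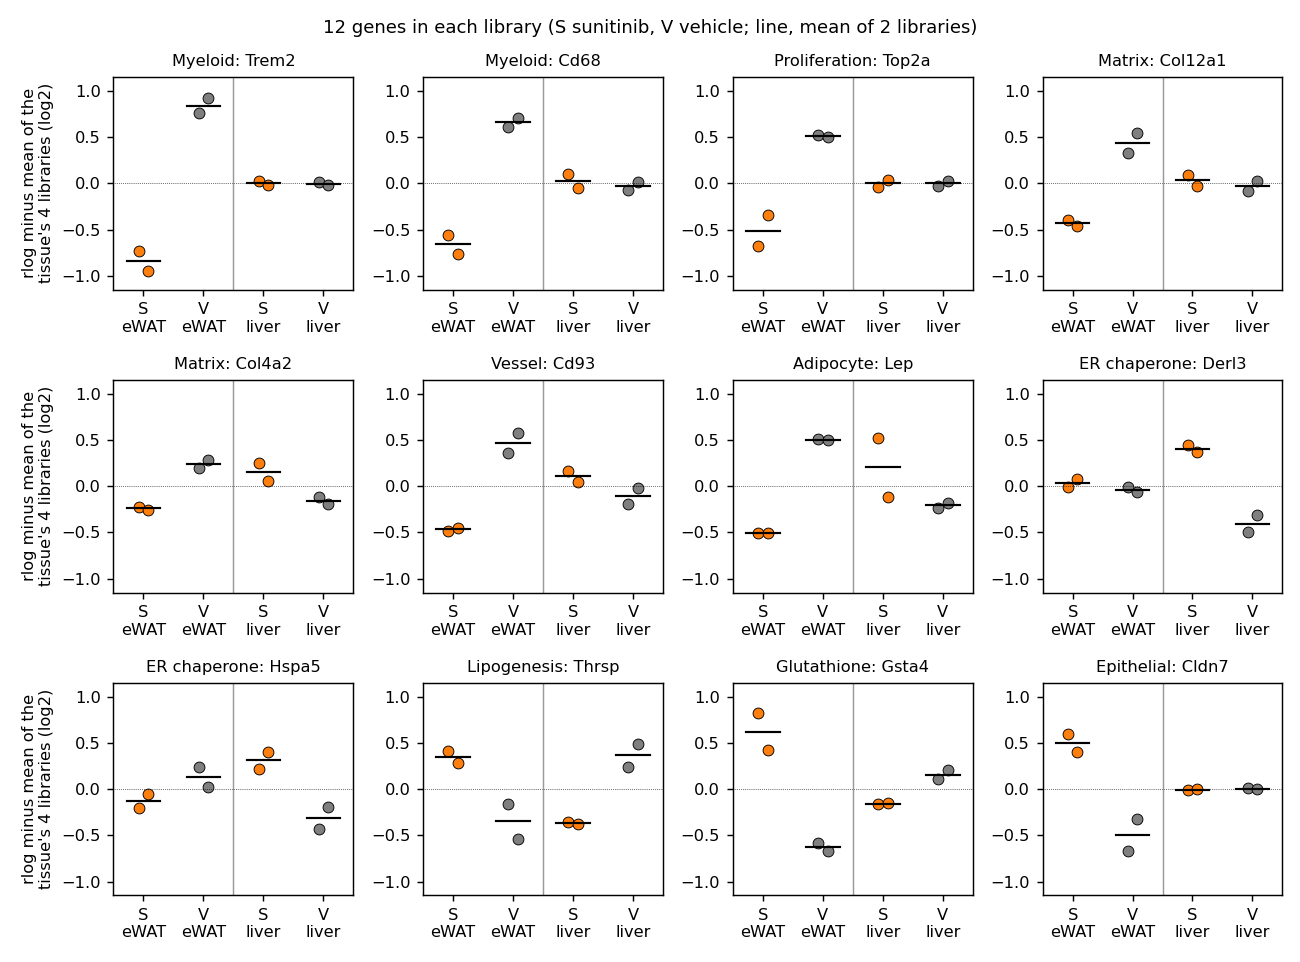
Level of 12 genes in each library as rlog minus the mean of the tissue's 4 libraries (log2 units), with sunitinib (S, orange) left of vehicle (V, grey) in eWAT and then in liver, and a line at the mean of 2 libraries. Trem2, Cd68, Top2a and Cldn7 separate in eWAT with liver points near 0, Derl3 and Hspa5 separate in liver, and Col4a2 and Thrsp separate in opposite directions in the 2 tissues.

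Other genes of leukocytes, and the stress gene Atf3, stood on the lower side. Lcp1, the actin-bundling protein L-plastin, was at 10.52 and 10.68 in sunitinib eWAT, 11.80 and 11.88 in vehicle eWAT, 10.30 and 10.30 in sunitinib liver and 10.26 and 10.32 in vehicle liver. It separated the groups in eWAT but not in liver, and the difference was −1.25 ± 0.10 (adjusted p = 0.000794). Slc37a2, a sugar-phosphate transporter of macrophages, differed by −1.43 ± 0.10 (adjusted p = 0.000794), and Rgs1, which damps G-protein signals in leukocytes, by −1.43 ± 0.11 (adjusted p = 0.000794). Myo1f, a myosin of immune cells, differed by −1.35 ± 0.12 (adjusted p = 0.000816), and Lat2, an adaptor of myeloid and B cell receptors, by −1.34 ± 0.11 (adjusted p = 0.000794). Atf3, a stress-induced transcription factor, differed by −1.28 ± 0.12 (adjusted p = 0.00130). It was the 1 called gene of 20 in the integrated stress response list (5%, beside 3.95% of all genes tested). Pik3ap1, an adaptor that links receptors of immune cells to phosphoinositide 3-kinase, had opposite effects. It was at 8.21 and 8.44 in sunitinib eWAT, 9.26 and 9.50 in vehicle eWAT, 10.10 and 10.25 in sunitinib liver and 9.74 and 9.72 in vehicle liver. The groups were apart in both tissues, lower with sunitinib in eWAT and higher with sunitinib in liver, and the difference was −1.50 ± 0.15 (adjusted p = 0.00160), although its liver effect of 0.45 did not pass in liver alone.

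Kupffer cell genes held 2 calls. Of 11 tested, Id3 and Marco were lower in eWAT than in liver and 0 were higher, with a median difference of −0.19. The differences ran from −0.73 to 1.24, with 7 negative and 4 positive. Marco, a scavenger receptor, was at 5.98 and 6.003 in sunitinib eWAT, 6.30 and 6.22 in vehicle eWAT, 6.53 and 6.44 in sunitinib liver and 5.94 and 6.28 in vehicle liver. Both tissues were apart, in opposite directions, and the difference was −0.64 ± 0.14 (adjusted p = 0.0440), a call lost with each single library left out except eWAT sunitinib replicate 1, eWAT sunitinib replicate 2 and liver vehicle replicate 2, and with no minimum level and without the intensity trend (adjusted p from 0.00457 to 0.159 over 18 alternatives). Vsig4, a complement receptor of Kupffer cells, had effects of −0.21 in eWAT and −0.01 in liver, and its difference of −0.20 ± 0.14 did not pass (95% interval −0.51 to 0.12). Neither Id3 nor Marco passed without liver vehicle replicate 1 or liver sunitinib replicate 4. The Kupffer genes averaged 7.55 and 7.47 in sunitinib liver and 7.41 and 7.62 in vehicle liver.

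Lysosome genes, some of them shared with the macrophage lists, had mostly negative differences. Of 38 genes for the vacuolar proton pump and lysosomal enzymes, 8 were lower and 0 higher, and 36 had a negative difference, with medians of −0.29 for the difference, −0.28 in eWAT and −0.05 in liver. Besides Atp6v0d2 and Lipa, the pump subunits Atp6v1b2 and Atp6v0a1 differed by −0.52 ± 0.09 (adjusted p = 0.0186) and −0.62 ± 0.12 (adjusted p = 0.0238). That of Atp6v1b2 was lost without eWAT vehicle replicate 2, liver vehicle replicate 1, liver sunitinib replicate 3 or liver sunitinib replicate 4 (adjusted p from 0.00636 to 0.0820 over 18 alternatives), and that of Atp6v0a1 with each single library left out except eWAT vehicle replicate 1, eWAT sunitinib replicate 1 and eWAT sunitinib replicate 2, and with quantile normalization (adjusted p from 0.00832 to 0.0952 over 18 alternatives). Without eWAT vehicle replicate 2 only 1 member passed, with a median of −0.30. The count was 2 without liver vehicle replicate 1, liver sunitinib replicate 3 or liver sunitinib replicate 4, and 4 without eWAT vehicle replicate 1 or liver vehicle replicate 2.

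Genes of antigen presentation had the same sign in both tissues. All 14 had negative effects in eWAT and in liver, with medians of −0.67 in eWAT and −0.12 in liver, and the eWAT groups were apart in 14 and the liver groups in 11. In eWAT alone 8 of them fell. The difference passed in 1 of them (7.14%, beside 3.95% of all genes tested), H2-DMb1, a chaperone of peptide loading onto class II molecules. It was at 7.87 and 8.21 in sunitinib eWAT, 9.14 and 9.22 in vehicle eWAT, 3.63 and 3.64 in sunitinib liver and 3.63 and 3.64 in vehicle liver. Its eWAT groups were apart, its liver libraries lay together near the minimum, and the difference was −1.14 ± 0.14 (adjusted p = 0.00389). Without eWAT sunitinib replicate 2 the count was 7, and without eWAT sunitinib replicate 1 it was 3. Of 26 interferon-stimulated genes 1 was lower (3.85%, beside 3.95% of all genes tested), with a median difference of −0.13 over the list. It was Ifi27l2a, at −0.56 ± 0.12 (adjusted p = 0.0352). Its call was lost with each single library left out except eWAT sunitinib replicate 1 and eWAT sunitinib replicate 2 (adjusted p from 0.00911 to 0.140 over 18 alternatives). Of 11 chemokines and chemokine receptors 0 passed by limma, 6 had an unadjusted p under 0.05, and the median was −0.25. Without eWAT sunitinib replicate 2, 4 of them passed. Of 5 T and B lymphocyte genes 0 passed by limma and 3 had an unadjusted p under 0.05.

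The calprotectin genes S100a8 and S100a9, which neutrophils express strongly, rose in the fit of liver alone. S100a8 was at 7.96 and 7.99 in sunitinib eWAT, 8.34 and 8.61 in vehicle eWAT, 4.57 and 4.44 in sunitinib liver and 4.15 and 4.14 in vehicle liver. Its groups were apart in both tissues, with sunitinib below vehicle in eWAT and above it in liver, and with a difference of −0.86 ± 0.13 (adjusted p = 0.00832). S100a9 was at 3.25 and 3.20 in sunitinib eWAT, 3.24 and 3.18 in vehicle eWAT, 5.68 and 5.46 in sunitinib liver and 5.08 and 5.04 in vehicle liver. In eWAT it lay near the minimum and its groups overlapped, and its difference of −0.50 ± 0.09 (adjusted p = 0.0221) was close in size to its liver effect of 0.51. That call was lost without eWAT vehicle replicate 1, eWAT vehicle replicate 2, liver vehicle replicate 1 or liver vehicle replicate 2 and without the intensity trend (adjusted p from 0.00259 to 0.0836 over 17 alternatives). The other 5 of 7 neutrophil genes tested did not pass. Over the 7 genes the differences ran from −0.86 to 1.30, with 6 negative and 1 positive.

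Many proliferation genes had lower effects in eWAT. Of 26 tested, 12 were lower and 0 higher, 25 had a negative difference, and the medians were −0.29 for the difference, −0.32 in eWAT and −0.01 in liver. Top2a, the topoisomerase of dividing cells, was at 7.13 and 7.47 in sunitinib eWAT, 8.33 and 8.32 in vehicle eWAT, 3.65 and 3.73 in sunitinib liver and 3.66 and 3.72 in vehicle liver. Its eWAT groups were apart, its liver groups overlapped, and the difference was −1.02 ± 0.14 (adjusted p = 0.00563). Cdk1, the kinase that starts mitosis, differed by −0.67 ± 0.09 (adjusted p = 0.00642), and Birc5, which encodes survivin, by −0.52 ± 0.07 (adjusted p = 0.00634). Mki67, the gene of the proliferation antigen Ki-67, differed by −1.17 ± 0.20 (adjusted p = 0.0147), and its call was lost without eWAT vehicle replicate 1, liver vehicle replicate 1, liver vehicle replicate 2 or liver sunitinib replicate 3 (adjusted p from 0.000109 to 0.0721 over 17 alternatives). The count of lower members was 5 without either liver vehicle library, 5 without liver sunitinib replicate 3 and 6 without liver sunitinib replicate 4, and it was 7 without eWAT vehicle replicate 1 and 8 without eWAT vehicle replicate 2.

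Tk1, the thymidine kinase of S phase, was the exception of that list. It was at 6.50 and 6.62 in sunitinib eWAT, 7.06 and 7.10 in vehicle eWAT, 8.82 and 8.74 in sunitinib liver and 9.29 and 9.33 in vehicle liver. Both tissues had sunitinib libraries below vehicle libraries by about the same amount, with effects of −0.51 in eWAT and −0.53 in liver. Both effects passed in the single-tissue fits, and the difference was 0.02 ± 0.10 with a 95% interval of −0.20 to 0.24.

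Some collagens had lower effects in eWAT than in liver. Of 15 fibrillar and other collagen genes, 4 were lower and 0 higher, 14 had a negative difference, and the medians were −0.48 for the difference, −0.49 in eWAT and −0.05 in liver. In eWAT alone 7 of them fell. Col12a1, a collagen that sits on fibril surfaces, was at 8.89 and 8.83 in sunitinib eWAT, 9.62 and 9.84 in vehicle eWAT, 4.29 and 4.17 in sunitinib liver and 4.12 and 4.22 in vehicle liver. The groups were apart in eWAT and overlapped in liver, with a difference of −0.93 ± 0.12 (adjusted p = 0.00548). Col6a3 and Col6a2, chains of the collagen that surrounds adipocytes, differed by −0.75 ± 0.13 (adjusted p = 0.0185) and −0.83 ± 0.17 (adjusted p = 0.0307), and Col5a1 by −0.54 ± 0.12 (adjusted p = 0.0427). The call of Col6a3 was lost with each single library left out except eWAT vehicle replicate 2, eWAT sunitinib replicate 1 and eWAT sunitinib replicate 2 (adjusted p from 0.00247 to 0.0817 over 18 alternatives), that of Col6a2 with each single library left out except eWAT vehicle replicate 2, eWAT sunitinib replicate 1 and eWAT sunitinib replicate 2 (adjusted p from 0.0124 to 0.125 over 18 alternatives), and that of Col5a1 with each single library left out except liver sunitinib replicate 4, and with no minimum level and with quantile normalization (adjusted p from 0.00886 to 0.150 over 18 alternatives). The count of lower collagens was 1 without eWAT vehicle replicate 1, without either liver vehicle library or without liver sunitinib replicate 3, 2 without liver sunitinib replicate 4 and 7 without eWAT sunitinib replicate 2.

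Basement membrane genes were called on the lower side. Of 16 tested 4 were lower and 0 higher, and the medians were −0.13 for the difference, −0.20 in eWAT and −0.01 in liver. Col4a1 and Col4a2, the paired chains of the collagen IV network under endothelium, had opposite effects in eWAT and liver. Col4a2 was at 14.36 and 14.33 in sunitinib eWAT, 14.77 and 14.86 in vehicle eWAT, 7.89 and 7.69 in sunitinib liver and 7.51 and 7.44 in vehicle liver. Sunitinib libraries lay below vehicle libraries in eWAT and above them in liver, and the difference was −0.79 ± 0.11 (adjusted p = 0.00764), with effects of −0.48 in eWAT and 0.31 in liver that did not pass in either single-tissue fit. Col4a1 was at 14.91 and 14.91 in sunitinib eWAT, 15.27 and 15.28 in vehicle eWAT, 8.43 and 8.24 in sunitinib liver and 8.06 and 8.18 in vehicle liver. It showed the same pattern as Col4a2, and its difference was −0.58 ± 0.11 (adjusted p = 0.0290), a call lost with each single library left out except eWAT sunitinib replicate 1, eWAT sunitinib replicate 2 and liver sunitinib replicate 4, and with quantile normalization (adjusted p from 0.0219 to 0.128 over 18 alternatives). The 2 genes start close together and are transcribed in opposite directions. In RefSeq (GRCm38.p6), windows of 250 bases before to 50 bases after each start overlap by 78 bases, and the first bases lie 21 bases apart on opposite strands. The window of Col4a2, on the plus strand at chr8:11312555-11312854, is shown because these 2 genes showed the same pattern, with the 78 bases shared with the Col4a1 window in capitals.
Col4a2: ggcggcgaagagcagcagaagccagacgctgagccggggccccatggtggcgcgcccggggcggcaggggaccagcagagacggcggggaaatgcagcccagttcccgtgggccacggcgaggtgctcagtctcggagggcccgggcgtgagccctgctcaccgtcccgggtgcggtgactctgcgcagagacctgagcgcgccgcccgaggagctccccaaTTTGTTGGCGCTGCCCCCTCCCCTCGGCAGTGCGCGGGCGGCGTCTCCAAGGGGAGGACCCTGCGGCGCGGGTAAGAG
Hspg2, which encodes perlecan, differed by −0.69 ± 0.12 (adjusted p = 0.0147), and Sparc, a collagen-binding glycoprotein, by −0.77 ± 0.15 (adjusted p = 0.0290). The call of Hspg2 was lost without liver vehicle replicate 2 or liver sunitinib replicate 3 (adjusted p from 0.00447 to 0.0704 over 18 alternatives), and that of Sparc with each single library left out except eWAT sunitinib replicate 1, eWAT sunitinib replicate 2 and liver vehicle replicate 2, and with quantile normalization (adjusted p from 0.0158 to 0.293 over 18 alternatives). The count of lower members was 1 without liver sunitinib replicate 3, and 2 without eWAT vehicle replicate 1 or without either liver vehicle library.

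Matrix glycoproteins and remodelling enzymes went in both directions. Of 28 tested, 3 were lower and 2 higher, with a median difference of −0.01. The lower ones were Sparc, fibulin-2 (Fbln2) at −0.53 ± 0.12 (adjusted p = 0.0427) and the aggrecanase Adamts5 at −0.41 ± 0.09 (adjusted p = 0.0454). Fbln1, a fibulin of elastic matrix, and Ogn, the proteoglycan osteoglycin, were the 2 higher ones, at 0.46 ± 0.09 (adjusted p = 0.0290) and 0.50 ± 0.10 (adjusted p = 0.0355). The call of Fbln1 was lost with each single library left out except eWAT sunitinib replicate 1 and eWAT sunitinib replicate 2 (adjusted p from 0.00702 to 0.131 over 17 alternatives), and that of Ogn with each single library left out except eWAT vehicle replicate 2, eWAT sunitinib replicate 1 and eWAT sunitinib replicate 2 (adjusted p from 0.00624 to 0.137 over 17 alternatives). That of Fbln2 was lost with each single library left out except eWAT vehicle replicate 1 and eWAT sunitinib replicate 1, and with no minimum level and with quantile normalization (adjusted p from 0.0138 to 0.150 over 17 alternatives), and that of Adamts5 with each single library left out and with quantile normalization and with median centring (adjusted p from 0.0170 to 0.145 over 17 alternatives). The lower count was 1 without liver vehicle replicate 2 and 2 without eWAT vehicle replicate 1, and no lower member passed without eWAT vehicle replicate 2, liver vehicle replicate 1 or either sunitinib liver library. No higher member passed with any one liver library left out. Hmcn2, which encodes the matrix protein hemicentin-2 and was in none of the lists, had a lower difference than any gene of that list. It was at 8.70 and 8.69 in sunitinib eWAT, 10.13 and 10.27 in vehicle eWAT, 5.05 and 4.97 in sunitinib liver and 4.95 and 4.99 in vehicle liver. The eWAT groups were apart by more than 1 unit, the liver groups overlapped, and the difference was −1.54 ± 0.10 (adjusted p = 0.000794).

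Among endothelial genes the share called was near that over all genes. Of 30 pan-endothelial genes 1 was lower and 0 higher (3.33%, beside 3.95% of all genes tested), with medians of −0.22 for the difference, −0.31 in eWAT and −0.08 in liver, and 25 of 30 differences were negative. Cd93, a surface glycoprotein of growing endothelium, was the 1 that passed. It was at 9.32 and 9.35 in sunitinib eWAT, 10.17 and 10.37 in vehicle eWAT, 6.05 and 5.92 in sunitinib liver and 5.68 and 5.86 in vehicle liver. Its groups were apart in eWAT, lower with sunitinib, and apart in liver, higher with sunitinib, and the difference was −1.15 ± 0.13 (adjusted p = 0.00327). Without eWAT vehicle replicate 1 the count was 5, and without eWAT sunitinib replicate 2 it was 3. Cdh5, the cadherin of endothelial junctions, had effects of −0.70 in eWAT and −0.11 in liver, and its difference of −0.59 ± 0.20 did not pass (95% interval −1.05 to −0.14), except without eWAT vehicle replicate 1 (adjusted p from 0.0228 to 0.357 over 18 alternatives). All 14 genes of the sinusoidal list had negative effects in liver (median −0.19), as had 8 of them in eWAT (median −0.09). In that list 1 gene passed (7.14%, beside 3.95% of all genes tested). This was Lyve1, a hyaluronan receptor of lymphatic and sinusoidal endothelium, with a higher effect in eWAT. It was at 10.11 and 10.26 in sunitinib eWAT, 9.82 and 9.69 in vehicle eWAT, 4.82 and 4.90 in sunitinib liver and 5.14 and 5.26 in vehicle liver. Both tissues were apart, in opposite directions, with a difference of 0.77 ± 0.12 (adjusted p = 0.00967). That call was lost without liver sunitinib replicate 3 (adjusted p from 0.000968 to 0.0553 over 18 alternatives).

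The genes of the sunitinib target kinases did not pass. Of 9, 7 were tested, 0 differed between the tissues by limma, and 2, Csf1r and Pdgfrb, had an unadjusted p under 0.05. All 7 effects were negative in liver (median −0.21) and 4 of 7 in eWAT (median −0.08), with a median difference of 0.13. Csf1r, which receives the macrophage growth signal, came nearest. It was at 10.99 and 10.88 in sunitinib eWAT, 11.71 and 11.79 in vehicle eWAT, 7.97 and 7.67 in sunitinib liver and 7.83 and 8.08 in vehicle liver. The eWAT groups were apart and the liver groups overlapped, and the difference was −0.68 ± 0.16 with a 95% interval of −1.04 to −0.31 (adjusted p = 0.0573). It passed without eWAT sunitinib replicate 1 or liver sunitinib replicate 4 and with the robust variance setting and with the spread estimated per tissue (adjusted p from 0.00721 to 0.175 over 18 alternatives). Pdgfrb, the receptor of pericytes for platelet-derived growth factor, differed by −0.46 ± 0.17 (95% interval −0.84 to −0.09) and passed without eWAT vehicle replicate 1 (adjusted p from 0.0348 to 0.353 over 18 alternatives). For the receptors of vascular endothelial growth factor the intervals were −0.31 to 0.77 for Kdr, −0.46 to 0.18 for Flt1 and −0.07 to 0.91 for Flt4. Kit and Pdgfra differed by 0.31 ± 0.18 and 0.13 ± 0.11, with intervals of −0.10 to 0.72 and −0.12 to 0.38. Of 13 ligands of these receptors 0 passed by limma, 5 had an unadjusted p under 0.05, and the median difference was 0.08.

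Adipocyte identity genes had a median near 0, while the leptin gene and genes of fat expansion had lower effects in eWAT. Of 19 identity genes tested 2 were lower and 1 higher, with medians of −0.03 for the difference, −0.01 in eWAT and 0.03 in liver. Neither direction had a call without either liver vehicle library. Lep, which encodes leptin, was at 15.44 and 15.44 in sunitinib eWAT, 16.45 and 16.44 in vehicle eWAT, 6.28 and 5.64 in sunitinib liver and 5.52 and 5.57 in vehicle liver. In eWAT its groups were 1 unit apart with close replicates, and in liver, where the level is low, sunitinib replicate 3 stood above the other libraries. The difference was −1.42 ± 0.23 (adjusted p = 0.0142), lost without eWAT vehicle replicate 2, liver vehicle replicate 1 or liver vehicle replicate 2 (adjusted p from 0.000507 to 0.0665 over 18 alternatives). Cfd, which encodes the adipocyte protease adipsin, went the other way, at 16.41 and 15.65 in sunitinib eWAT, 14.81 and 14.73 in vehicle eWAT, 6.002 and 5.94 in sunitinib liver and 6.25 and 6.25 in vehicle liver. Its sunitinib libraries lay above the vehicle libraries in eWAT and below them in liver, and the difference was 1.55 ± 0.27 (adjusted p = 0.0183), a call lost with each single library left out except eWAT sunitinib replicate 1 and eWAT sunitinib replicate 2, and with the robust variance setting (adjusted p from 2.36e-05 to 0.0765 over 18 alternatives). Of 10 genes linked to adipocyte expansion 4 were lower and 0 higher, and all 10 liver effects were positive, with a median difference of −0.41. Mest, an imprinted gene whose level tracks fat expansion in mice, was at 12.99 and 13.01 in sunitinib eWAT, 13.70 and 13.78 in vehicle eWAT, 4.63 and 4.51 in sunitinib liver and 4.44 and 4.51 in vehicle liver. Sunitinib lay below vehicle in eWAT, the liver groups met, and the difference was −0.83 ± 0.10 (adjusted p = 0.00355). Trp53inp2, a gene of autophagy, differed by −0.81 ± 0.11 (adjusted p = 0.00634) and Peg3, another imprinted gene, by −0.67 ± 0.11 (adjusted p = 0.0124). The call of Peg3 was lost without liver vehicle replicate 2 or liver sunitinib replicate 3 (adjusted p from 0.00151 to 0.0602 over 18 alternatives). Without liver vehicle replicate 2 the count of lower genes in this list was 2.

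**Figure D3:**
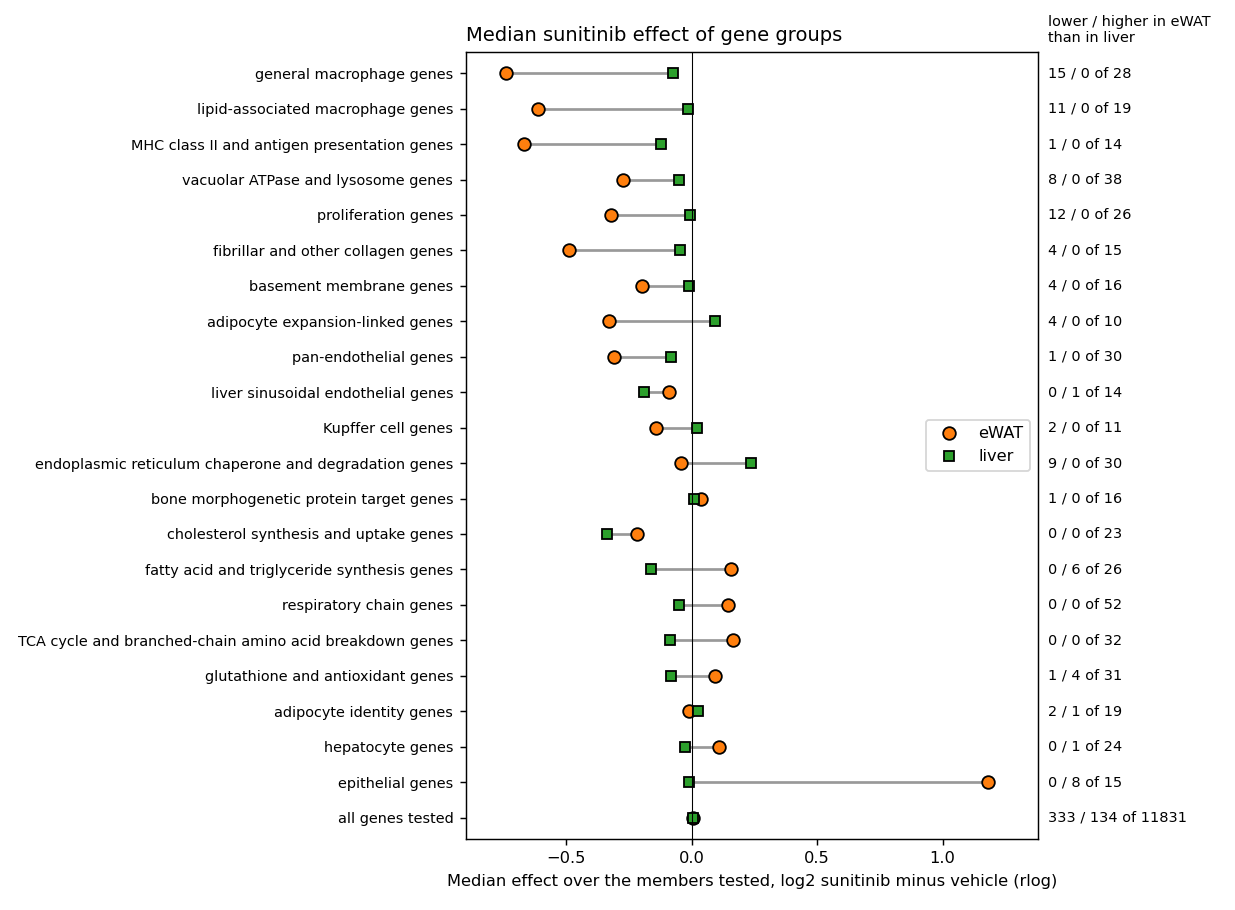
Median sunitinib effect (log2, rlog) over the tested members of 21 gene groups and over all genes, with eWAT as orange circles and liver as green squares. The numbers at the right give how many members had a lower or a higher effect in eWAT than in liver and how many were tested. General macrophage genes lie at −0.74 in eWAT and −0.07 in liver, epithelial genes at 1.18 in eWAT and −0.01 in liver, and ER chaperone genes at −0.04 in eWAT and 0.24 in liver.

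Some fatty acid and triglyceride synthesis genes had higher effects in eWAT than in liver. Of 26 tested 6 were higher and 0 lower, 18 had a positive difference, and the medians were 0.41 for the difference, 0.16 in eWAT and −0.16 in liver. Thrsp, a lipogenic protein of the Spot 14 family, was at 14.18 and 14.05 in sunitinib eWAT, 13.61 and 13.23 in vehicle eWAT, 12.29 and 12.28 in sunitinib liver and 12.89 and 13.14 in vehicle liver. The groups were apart in both tissues, higher with sunitinib in eWAT and lower with sunitinib in liver, and the difference was 1.43 ± 0.19 (adjusted p = 0.00548). Its liver effect of −0.73 passed in the fit of liver alone. Scd1, the stearoyl-CoA desaturase, was at 19.61 and 19.48 in sunitinib eWAT, 19.08 and 18.57 in vehicle eWAT, 15.55 and 15.85 in sunitinib liver and 16.10 and 16.52 in vehicle liver. It showed the same order, with a larger spread between replicates, and its difference was 1.33 ± 0.30 (adjusted p = 0.0473), a call lost with each single library left out except eWAT vehicle replicate 1 and eWAT sunitinib replicate 2, and with no minimum level and with quantile normalization (adjusted p from 0.00617 to 0.202 over 18 alternatives). Fads2, the delta-6 desaturase of polyunsaturated fatty acids, had the largest positive difference that passed. It was at 10.24 and 9.55 in sunitinib eWAT, 8.08 and 8.62 in vehicle eWAT, 12.50 and 12.85 in sunitinib liver and 12.79 and 13.25 in vehicle liver. Its eWAT groups were apart and its liver groups overlapped, with a difference of 1.89 ± 0.37 (adjusted p = 0.0267), and the call was lost without eWAT vehicle replicate 1, liver vehicle replicate 1, liver vehicle replicate 2 or liver sunitinib replicate 3 and with the robust variance setting (adjusted p from 0.00287 to 0.127 over 18 alternatives).

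The carboxylases that make malonyl-CoA were in the same group. Acaca differed by 0.71 ± 0.13 (adjusted p = 0.0176) with effects of 0.70 in eWAT and −0.01 in liver, and Acacb by 0.92 ± 0.16 (adjusted p = 0.0167) with effects of 0.45 in eWAT and −0.47 in liver. The call of Acaca was lost without eWAT vehicle replicate 2, liver vehicle replicate 1, liver vehicle replicate 2 or liver sunitinib replicate 4 (adjusted p from 0.00252 to 0.0766 over 18 alternatives), and that of Acacb without eWAT vehicle replicate 1 or liver sunitinib replicate 4 (adjusted p from 0.000700 to 0.0628 over 18 alternatives). Mogat1, a monoacylglycerol acyltransferase, differed by 0.71 ± 0.12 (adjusted p = 0.0171), lost with each single library left out except eWAT vehicle replicate 1, eWAT sunitinib replicate 1 and eWAT sunitinib replicate 2 (adjusted p from 0.00231 to 0.0825 over 17 alternatives). Fasn, the fatty acid synthase, did not pass, at 0.65 ± 0.15 with a 95% interval of 0.30 to 1.002 (adjusted p = 0.0563), but did without eWAT vehicle replicate 1 or eWAT sunitinib replicate 1 and with quantile normalization, without the intensity trend, with the robust variance setting and with the spread estimated per tissue (adjusted p from 0.0144 to 0.208 over 18 alternatives). Srebf1, the transcription factor of this pathway, stood at 0.51 ± 0.14 (95% interval 0.20 to 0.82) and passed only without eWAT sunitinib replicate 2 and with quantile normalization and with the spread estimated per tissue (adjusted p from 0.0276 to 0.254 over 18 alternatives). Without liver vehicle replicate 2 or liver sunitinib replicate 4 the count of higher members was 2, and it was 3 without eWAT vehicle replicate 2, liver vehicle replicate 1 or liver sunitinib replicate 3.

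Cholesterol genes had mostly negative effects in both tissues. In eWAT 18 of 23 effects were negative and in liver all 23 were, with medians of −0.22 in eWAT and −0.34 in liver. The difference passed in 0 of 23 genes by limma, 6 had an unadjusted p under 0.05, and the median was 0.05. Without liver sunitinib replicate 3 the median was −0.16, and without liver sunitinib replicate 4 it was 0.31 and 1 gene passed. In eWAT alone 7 of these genes fell. Dhcr7, the enzyme of the last step, was at 7.88 and 7.93 in sunitinib eWAT, 8.55 and 8.68 in vehicle eWAT, 8.52 and 9.06 in sunitinib liver and 9.29 and 9.49 in vehicle liver. Sunitinib libraries lay below vehicle libraries in both tissues, and the difference was −0.10 ± 0.22 (95% interval −0.60 to 0.39). Insig1, a sterol-sensing regulator, differed by −0.42 ± 0.18 (95% interval −0.83 to −0.01). Dhcr7 was chosen after its values were seen.

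The glutathione transferases Gsta4, Gstt1 and Gsta3 had higher effects in eWAT than in liver. Of 31 glutathione and antioxidant genes 4 were higher and 1 lower, and 23 had a positive difference, with a median difference of 0.13. Gsta4, a transferase that conjugates lipid peroxidation products, was at 9.10 and 8.70 in sunitinib eWAT, 7.70 and 7.62 in vehicle eWAT, 9.17 and 9.18 in sunitinib liver and 9.44 and 9.54 in vehicle liver. Sunitinib libraries lay above vehicle libraries in eWAT and below them in liver, and the difference was 1.56 ± 0.16 (adjusted p = 0.00215). Gstt1 differed by 0.96 ± 0.13 (adjusted p = 0.00548) and Gsta3 by 1.12 ± 0.19 (adjusted p = 0.0158), with negative liver effects of −0.27 and −0.31. The call of Gsta3 was lost without eWAT vehicle replicate 2, liver vehicle replicate 2 or liver sunitinib replicate 3 (adjusted p from 0.00126 to 0.0722 over 18 alternatives), and alpha-class transferases are close paralogs among which the counting could have split reads. Gpx3, the secreted glutathione peroxidase, was at 13.58 and 13.70 in sunitinib eWAT, 12.70 and 12.75 in vehicle eWAT, 6.43 and 6.44 in sunitinib liver and 6.44 and 6.39 in vehicle liver. Only its eWAT groups were apart, and the difference was 0.90 ± 0.09 (adjusted p = 0.00194). Sod3, the extracellular superoxide dismutase, was the lower one at −0.45 ± 0.10 (adjusted p = 0.0427), lost with each single library left out and with no minimum level, with a minimum mean of 5, with quantile normalization and with median centring (adjusted p from 0.0225 to 0.154 over 18 alternatives).

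Respiratory chain and TCA cycle genes had mostly positive differences of small size, and none of them passed. Of 52 respiratory chain genes 49 had a positive difference, with medians of 0.19 for the difference, 0.14 in eWAT and −0.05 in liver. Among them 0 passed by limma and 13 had an unadjusted p under 0.05. Ndufb8, of complex I, came nearest at 0.39 ± 0.10 (adjusted p = 0.0618, 95% interval 0.17 to 0.61), and passed with quantile normalization, without the intensity trend and with the spread estimated per tissue (adjusted p from 0.0190 to 0.187 over 18 alternatives). Of 32 genes of the TCA cycle and branched-chain amino acid breakdown 28 had a positive difference, with a median of 0.24, and 0 passed by limma while 13 had an unadjusted p under 0.05. Idh2, the mitochondrial isocitrate dehydrogenase, was nearest there at 0.38 ± 0.09 (adjusted p = 0.0602, 95% interval 0.17 to 0.59), and it passed with quantile normalization, without the intensity trend and with the spread estimated per tissue (adjusted p from 0.0328 to 0.209 over 18 alternatives). Of 38 mitochondrial ribosome genes 25 had a positive difference, with a median of 0.04. Fatty acid oxidation genes had a median of 0.02, with 17 of 31 differences positive and 6.45% called, beside 3.95% of all genes tested. Of these 31, the acyl-CoA thioesterases Acot2 and Acot4 were higher, at 0.69 ± 0.12 (adjusted p = 0.0194) and 0.60 ± 0.10 (adjusted p = 0.0144), both with negative liver effects of −0.34 and −0.47. The call of Acot2 was lost without eWAT vehicle replicate 1, liver vehicle replicate 1, liver vehicle replicate 2 or liver sunitinib replicate 3 (adjusted p from 0.00397 to 0.0861 over 18 alternatives), and that of Acot4 without eWAT vehicle replicate 1, liver vehicle replicate 2 or liver sunitinib replicate 3 (adjusted p from 0.00132 to 0.0604 over 18 alternatives).

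The ER chaperone and degradation genes had their larger effects in liver. Of 30 tested 9 were lower in eWAT than in liver and 0 higher, 27 had a negative difference, and the medians were −0.31 for the difference, −0.04 in eWAT and 0.24 in liver. In liver 29 of 30 effects were positive and the groups were apart in 23, all with sunitinib above vehicle. In the fit of liver alone 6 of them rose. Promoter windows of 300 bases were at hand for 24 of the 30 genes. The ER stress response element, searched as CCAAT, 9 bases of any kind and then CCACG on both strands, occurred in 9 of these 24 windows, against 15 of 8314 tested genes with a window (0.18%). Other motifs were searched in the same way in the windows of other groups. The sterol element core TCACNCCAC was in 1 of 16 windows of cholesterol genes (1.13% of tested genes with a window), as was its stricter form TCACCCCAC (0.613%). The E-box CACGTG was in 2 of 21 windows of lipid synthesis genes (10.5%), and the longer TCACGTGA, which contains it, in 6 of 27 windows of lysosome genes (2.09%). The PU.1 core GAGGAAGT was in 3 of 23 windows of general macrophage genes (2.98%), and the CHR element TTTGAA in 9 of 24 windows of proliferation genes (11.5%). Besides the 4 shown, the ER genes with a match to their element were Calr, Canx, Dnajc3, Hsp90b1 and Pdia6. The windows of 4 genes that passed are printed 5′ to 3′ on the plus strand, where the match is in capitals, as read on that strand, and the coordinates are those of RefSeq (GRCm38.p6). Derl3 lies at chr10:75893148-75893447, Syvn1 at chr19:6046326-6046625, Hspa5 at chr2:34771840-34772139 and Creld2 at chr15:88819396-88819695.
Derl3: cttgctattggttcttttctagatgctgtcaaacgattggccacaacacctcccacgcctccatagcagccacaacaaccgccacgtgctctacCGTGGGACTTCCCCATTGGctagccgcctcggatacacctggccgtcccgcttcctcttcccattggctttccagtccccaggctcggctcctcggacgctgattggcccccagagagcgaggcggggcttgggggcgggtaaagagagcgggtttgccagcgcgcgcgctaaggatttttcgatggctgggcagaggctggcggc
Syvn1: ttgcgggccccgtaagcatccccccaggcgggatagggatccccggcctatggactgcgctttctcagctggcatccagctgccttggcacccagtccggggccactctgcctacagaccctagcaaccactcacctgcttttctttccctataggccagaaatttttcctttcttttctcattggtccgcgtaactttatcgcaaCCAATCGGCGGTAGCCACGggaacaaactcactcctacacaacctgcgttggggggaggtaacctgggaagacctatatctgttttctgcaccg
Hspa5: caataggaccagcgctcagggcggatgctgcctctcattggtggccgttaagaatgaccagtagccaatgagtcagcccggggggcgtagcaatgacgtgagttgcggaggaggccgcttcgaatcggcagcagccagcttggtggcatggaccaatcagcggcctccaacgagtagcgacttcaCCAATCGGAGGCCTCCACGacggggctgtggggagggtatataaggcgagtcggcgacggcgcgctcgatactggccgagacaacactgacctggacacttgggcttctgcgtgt
Creld2: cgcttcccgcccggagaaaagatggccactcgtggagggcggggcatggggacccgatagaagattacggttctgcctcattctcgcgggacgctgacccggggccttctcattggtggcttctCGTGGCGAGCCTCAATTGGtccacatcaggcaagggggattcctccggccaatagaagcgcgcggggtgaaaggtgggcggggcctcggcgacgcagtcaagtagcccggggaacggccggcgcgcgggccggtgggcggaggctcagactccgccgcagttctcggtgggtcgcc
In Syvn1 and Hspa5 the match reads on the plus strand, and in Derl3 and Creld2 on the minus strand. A match describes the letters only and is no evidence of binding.

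Derl3, which helps to move misfolded protein out of the ER, was at 4.82 and 4.91 in sunitinib eWAT, 4.82 and 4.76 in vehicle eWAT, 7.41 and 7.34 in sunitinib liver and 6.48 and 6.65 in vehicle liver. Its eWAT groups overlapped, while sunitinib liver stood above vehicle liver, and the difference was −0.74 ± 0.10 (adjusted p = 0.00634). Syvn1, the ubiquitin ligase of the same route, was at 9.94 and 9.88 in sunitinib eWAT, 10.04 and 10.01 in vehicle eWAT, 10.55 and 10.53 in sunitinib liver and 9.96 and 9.95 in vehicle liver. The liver groups were far apart with sunitinib above vehicle, the eWAT groups were close, and the difference was −0.69 ± 0.08 (adjusted p = 0.00423). Hspa5, the chaperone BiP, was at 13.30 and 13.44 in sunitinib eWAT, 13.73 and 13.51 in vehicle eWAT, 13.74 and 13.92 in sunitinib liver and 13.08 and 13.32 in vehicle liver. The liver groups were apart with sunitinib above vehicle and the eWAT groups with sunitinib below, and the difference was −0.88 ± 0.17 (adjusted p = 0.0240), with effects of −0.25 in eWAT and 0.63 in liver. Creld2, a secreted ER stress marker, had the largest liver effect of the list, 0.85, and differed by −0.72 ± 0.15 (adjusted p = 0.0324).

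The other called members had differences of the same sign. Sdf2l1, a partner of the chaperone cycle, differed by −0.87 ± 0.14 (adjusted p = 0.0118), Hyou1, an exchange factor of BiP, by −0.72 ± 0.13 (adjusted p = 0.0176), and Dnajb11, one of its J-domain partners, by −0.60 ± 0.09 (adjusted p = 0.0127). Manf, a secreted ER protein, differed by −0.62 ± 0.13 (adjusted p = 0.0319) and Calr, which encodes calreticulin, by −0.56 ± 0.11 (adjusted p = 0.0306). Creld2, Manf and Calr lay outside the rule for named genes and were chosen after their values were seen. Xbp1, the transcription factor of this response, had effects of 0.18 in eWAT and 0.46 in liver, and its difference of −0.28 ± 0.18 did not pass (95% interval −0.69 to 0.13). Derl3 and Syvn1 passed with any single library left out. The call of Hspa5 was lost without eWAT vehicle replicate 1, liver vehicle replicate 1, liver sunitinib replicate 3 or liver sunitinib replicate 4 (adjusted p from 0.00244 to 0.102 over 18 alternatives), and that of Creld2 without eWAT vehicle replicate 1, eWAT vehicle replicate 2, liver vehicle replicate 1 or liver sunitinib replicate 4 (adjusted p from 0.00323 to 0.121 over 18 alternatives). The call of Sdf2l1 was lost without liver vehicle replicate 1 or liver sunitinib replicate 3 (adjusted p from 0.00113 to 0.0602 over 18 alternatives), that of Hyou1 without liver vehicle replicate 1 or liver sunitinib replicate 3 (adjusted p from 0.00307 to 0.0815 over 18 alternatives), and that of Dnajb11 without liver vehicle replicate 1 or liver sunitinib replicate 3 (adjusted p from 0.00217 to 0.0608 over 18 alternatives). Manf was lost with each single library left out except eWAT vehicle replicate 2, eWAT sunitinib replicate 1 and eWAT sunitinib replicate 2 (adjusted p from 0.00688 to 0.122 over 18 alternatives), and Calr with each single library left out except eWAT vehicle replicate 2 and eWAT sunitinib replicate 2 (adjusted p from 0.0107 to 0.128 over 18 alternatives). The count of lower members was 2 without liver vehicle replicate 1, 3 without liver sunitinib replicate 3 and 5 without eWAT vehicle replicate 1 or liver sunitinib replicate 4.

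**Figure D4:**
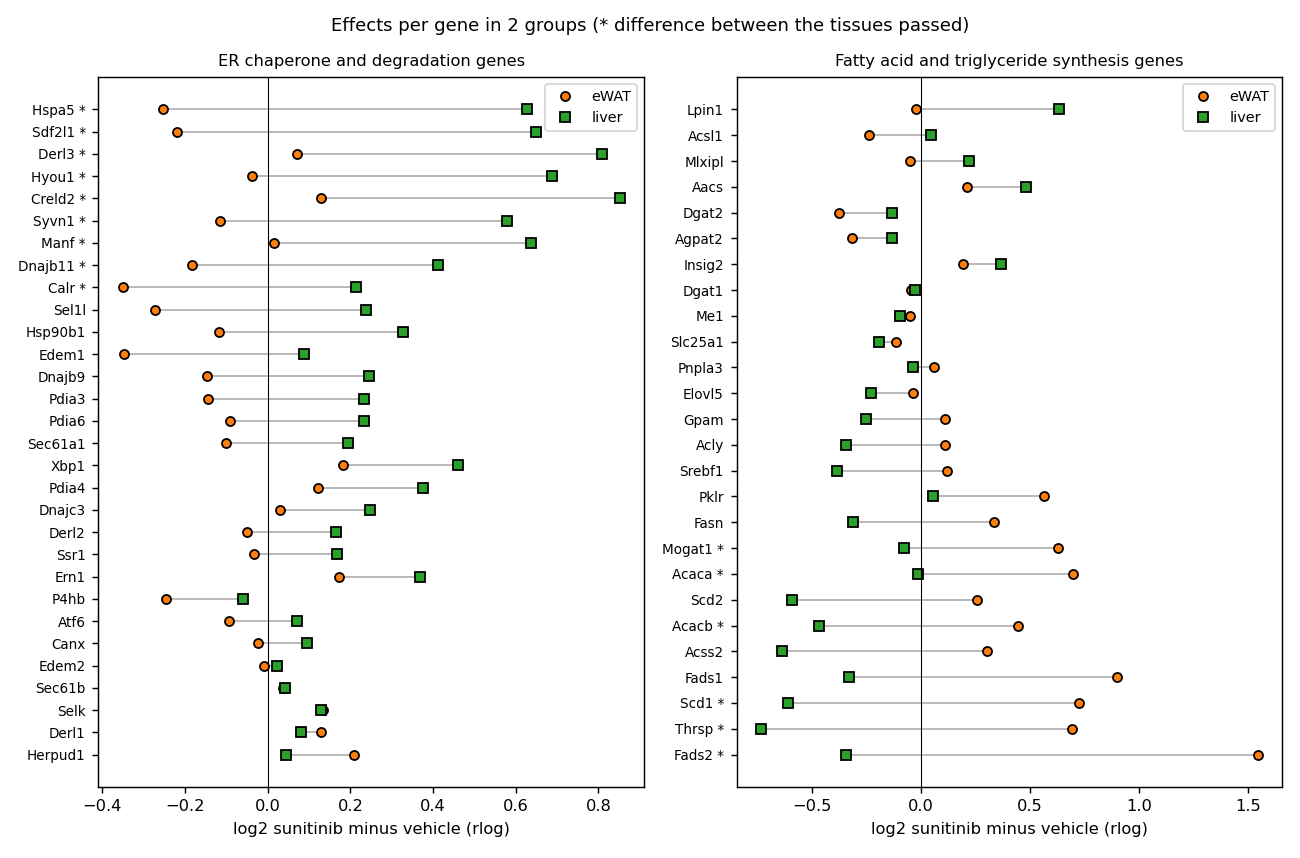
Sunitinib effect in eWAT (orange circles) and liver (green squares) for each tested gene of the ER chaperone and degradation group (left) and of the fatty acid and triglyceride synthesis group (right), as log2 sunitinib minus vehicle of rlog values. An asterisk marks genes whose difference between the tissues passed. In the ER group the liver marker lies right of the eWAT marker in 27 of 30 genes, and in the lipid synthesis group it lies left of it in 18 of 26.

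Other genes with the larger effect in liver were few. Id3, an inhibitor of basic helix-loop-helix factors and a target of bone morphogenetic protein (BMP) signals, was at 10.60 and 10.62 in sunitinib eWAT, 10.62 and 10.88 in vehicle eWAT, 9.27 and 9.39 in sunitinib liver and 8.71 and 8.76 in vehicle liver. Liver was apart with sunitinib above vehicle, the eWAT groups nearly met, and the difference was −0.73 ± 0.13 (adjusted p = 0.0163), lost without liver vehicle replicate 1, liver vehicle replicate 2 or liver sunitinib replicate 4 (adjusted p from 0.00333 to 0.0741 over 18 alternatives). Of 16 BMP target genes it was the 1 that passed (6.25%, beside 3.95% of all genes tested). Smad9 and Id1, of the same list, rose in the fit of liver alone, with liver effects of 0.79 and 0.67 beside 0.25 and 0.26 in eWAT, but their differences of −0.54 ± 0.17 and −0.41 ± 0.13 did not pass (95% intervals −0.92 to −0.17 and −0.70 to −0.12). Smad9 passed without eWAT sunitinib replicate 1 and with the spread estimated per tissue (adjusted p from 0.00664 to 0.318 over 17 alternatives). Nipal1, a magnesium transporter, was at 3.57 and 3.47 in sunitinib eWAT, 3.42 and 3.43 in vehicle eWAT, 5.71 and 5.90 in sunitinib liver and 6.39 and 6.53 in vehicle liver. Its level in eWAT was near the minimum, its liver groups were apart with sunitinib below vehicle, and the difference was 0.76 ± 0.10 (adjusted p = 0.00563).

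The cytochrome genes Cyp2a4 and Cyp2a5 fell in sunitinib liver. Cyp2a5 was at 11.81 and 12.05 in sunitinib liver and 12.65 and 12.62 in vehicle liver, and Cyp2a4 at 12.46 and 12.68 in sunitinib liver and 13.30 and 13.23 in vehicle liver, while both were under 4 in every eWAT library. Their differences were 0.73 ± 0.12 (adjusted p = 0.0149) for Cyp2a5 and 0.75 ± 0.12 (adjusted p = 0.0135) for Cyp2a4. The 2 genes are near-identical copies that can share reads, so neither value is certain on its own. Their calls were lost without eWAT vehicle replicate 1, liver vehicle replicate 1 or liver vehicle replicate 2 (adjusted p from 0.000627 to 0.0694 over 17 alternatives) and without liver vehicle replicate 1 (adjusted p from 0.000446 to 0.0663 over 17 alternatives). Cyp7b1, a hydroxylase that feeds oxysterols into bile acid synthesis, went the other way, with a liver effect of 0.65 and a difference of −0.51 ± 0.11 (adjusted p = 0.0457), lost with each single library left out except eWAT sunitinib replicate 1, and with no minimum level and with median centring (adjusted p from 0.00524 to 0.173 over 17 alternatives). Upp2, a uridine phosphorylase of liver, had a liver effect of −0.51 and differed by 0.68 ± 0.11 (adjusted p = 0.0118), lost without liver sunitinib replicate 3 (adjusted p from 0.000884 to 0.0565 over 18 alternatives). Nipal1, Cyp2a4, Cyp2a5, Cyp7b1 and Upp2 were chosen after their values were seen.

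Epithelial genes had the largest median of any list. Of 15 tested 8 were higher and 0 lower, all 15 differences were positive, and the medians were 1.28 for the difference, 1.18 in eWAT and −0.01 in liver. In eWAT the groups were apart in all 15. Cldn7, a claudin of tight junctions, was at 7.16 and 6.96 in sunitinib eWAT, 5.89 and 6.25 in vehicle eWAT, 3.23 and 3.25 in sunitinib liver and 3.26 and 3.24 in vehicle liver. The sunitinib libraries of eWAT lay above the vehicle libraries, the liver libraries lay together near the minimum, and the difference was 1.004 ± 0.15 (adjusted p = 0.00832). Cd24a, a surface glycoprotein, differed by 1.28 ± 0.18 (adjusted p = 0.00764), Tmprss2, a serine protease of epithelia, by 1.21 ± 0.15 (adjusted p = 0.00450), and Cdh1, E-cadherin, by 1.31 ± 0.25 (adjusted p = 0.0235). Krt19, a keratin of ducts and mesothelium, differed by 1.56 ± 0.31 (adjusted p = 0.0272). The call of Cdh1 was lost without liver vehicle replicate 1, liver vehicle replicate 2, liver sunitinib replicate 3 or liver sunitinib replicate 4 and with the robust variance setting (adjusted p from 0.00358 to 0.0971 over 18 alternatives), and that of Krt19 with each single library left out except eWAT sunitinib replicate 1 and eWAT sunitinib replicate 2, and with the robust variance setting (adjusted p from 6.59e-05 to 0.128 over 17 alternatives). Krt8 had the largest difference of all genes tested, 2.06 ± 0.50, with a wide 95% interval of 0.92 to 3.20, and did not pass (adjusted p = 0.0598). It passed without eWAT vehicle replicate 1, eWAT vehicle replicate 2 or eWAT sunitinib replicate 1 and with library weights and with the spread estimated per tissue (adjusted p from 0.00358 to 0.231 over 18 alternatives).

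The epithelial levels given above for eWAT are of this same list, so they are no separate measure. The duct genes had a log2 sum of 12.68 in eWAT sunitinib replicate 1 and 7.15 in replicate 2, beside 7.13 and 7.04 in vehicle eWAT. In replicate 1 nearly all of that sum was Crisp1, at 12.66. Without eWAT sunitinib replicate 1, the library with the high Crisp1, the epithelial median was 1.15 and 11 members passed, against 1.28 and 8 with it. Without eWAT vehicle replicate 1 the median was 0.95 with 8 called, and without liver vehicle replicate 1 or liver sunitinib replicate 3 the count was 3, as it was 4 without either of the other 2 liver libraries. Of 4 mesothelial genes tested, Krt19 and Msln were higher, and neither passed without eWAT vehicle replicate 2 or any single liver library, while all 4 passed without eWAT sunitinib replicate 2. The part of these markers in this and the other higher effects of eWAT was not tested.

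Further genes with large differences stood outside these groups, apart from Cyp2e1. It was the 1 gene of 24 in the hepatocyte list that passed (4.17%, beside 3.95% of all genes tested). Net1, an exchange factor for the small GTPase RhoA, was at 11.40 and 11.51 in sunitinib eWAT, 10.22 and 10.32 in vehicle eWAT, 9.31 and 9.49 in sunitinib liver and 9.55 and 9.59 in vehicle liver. The groups were apart in both tissues, and the difference was 1.35 ± 0.11 (adjusted p = 0.000794). Ank3, a membrane scaffold protein, differed by 1.48 ± 0.17 (adjusted p = 0.00355), with effects of 1.02 in eWAT and −0.46 in liver. Fam13a, a gene associated with fat distribution in humans, was at 12.12 and 11.70 in sunitinib eWAT, 10.73 and 10.17 in vehicle eWAT, 7.75 and 8.25 in sunitinib liver and 8.21 and 8.50 in vehicle liver. It was higher with sunitinib in eWAT, its liver groups overlapped, and the difference was 1.81 ± 0.32 (adjusted p = 0.0176), lost without eWAT vehicle replicate 2, liver vehicle replicate 1, liver vehicle replicate 2 or liver sunitinib replicate 3 and with the robust variance setting (adjusted p from 0.000989 to 0.0921 over 18 alternatives). Nt5e, the ecto-nucleotidase CD73, differed by 1.28 ± 0.22 (adjusted p = 0.0149), lost without liver vehicle replicate 2 or liver sunitinib replicate 3 (adjusted p from 0.000488 to 0.0649 over 18 alternatives), and Inmt, an indolamine methyltransferase, by 1.26 ± 0.22 (adjusted p = 0.0170), lost without liver vehicle replicate 1, liver vehicle replicate 2, liver sunitinib replicate 3 or liver sunitinib replicate 4 (adjusted p from 0.00197 to 0.0735 over 18 alternatives). Cyp2e1, a cytochrome of fat and hepatocytes, was at 15.04 and 14.75 in sunitinib eWAT, 13.63 and 13.75 in vehicle eWAT, 17.22 and 17.30 in sunitinib liver and 17.26 and 17.22 in vehicle liver. The groups were apart in eWAT only, with a difference of 1.19 ± 0.17 (adjusted p = 0.00764), lost without liver vehicle replicate 1 (adjusted p from 0.00127 to 0.0541 over 18 alternatives). Prps1, a synthetase of nucleotide precursors, was on the lower side at −1.24 ± 0.14 (adjusted p = 0.00291). The entry abParts, which collects immunoglobulin segments, was at 9.63 and 9.74 in sunitinib eWAT and 8.02 and 8.62 in vehicle eWAT, with a difference of 1.28 ± 0.23 (adjusted p = 0.0194), lost without liver vehicle replicate 1, liver vehicle replicate 2, liver sunitinib replicate 3 or liver sunitinib replicate 4 (adjusted p from 0.00358 to 0.0806 over 18 alternatives).

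Among the remaining groups, the 11 adipokine genes tested held 2 lower and 1 higher calls (27.3%, beside 3.95% of all genes tested). Their differences ran from −1.42 to 1.55. The other remaining groups held at most 1 call each. Of 12 pericyte and smooth muscle genes 0 passed by limma and 2 had an unadjusted p under 0.05, and their differences ran from −0.49 to 1.99. Myh11, the smooth muscle myosin, was the highest, at 13.61 and 9.93 in sunitinib eWAT, 9.41 and 10.11 in vehicle eWAT, 4.81 and 4.66 in sunitinib liver and 4.62 and 4.80 in vehicle liver. Sunitinib replicate 1 of eWAT, the library with the high Crisp1, stood far above the other 3 eWAT libraries, and the 95% interval of the difference was −0.90 to 4.89. The difference passed without eWAT sunitinib replicate 2 (adjusted p from 0.000109 to 0.836 over 17 alternatives). Without that library the median of the list was −0.14, against 0.47 with it, and without eWAT sunitinib replicate 2 it was 1.08 and 7 of its genes were higher. Of 18 circadian genes Usp2, a clock-controlled deubiquitinase, was higher at 0.78 ± 0.16 (adjusted p = 0.0329), lost with each single library left out except eWAT vehicle replicate 2, eWAT sunitinib replicate 1 and eWAT sunitinib replicate 2 (adjusted p from 0.00574 to 0.108 over 18 alternatives). Of 25 genes of insulin action and glucose metabolism Gys2, the liver glycogen synthase, was lower at −0.78 ± 0.17 (adjusted p = 0.0398), lost with each single library left out except eWAT sunitinib replicate 1 and eWAT sunitinib replicate 2, and with no minimum level (adjusted p from 0.000891 to 0.138 over 18 alternatives). Of 17 growth hormone and insulin-like growth factor genes Igfals, a binding partner of these factors in serum, was lower at −0.62 ± 0.12 (adjusted p = 0.0278), lost without eWAT vehicle replicate 2, liver vehicle replicate 1, liver vehicle replicate 2 or liver sunitinib replicate 3 (adjusted p from 0.00524 to 0.116 over 18 alternatives). Of 19 acute phase genes Lrg1, a secreted glycoprotein, was lower at −0.88 ± 0.16 (adjusted p = 0.0213), lost without eWAT vehicle replicate 2, liver vehicle replicate 1, liver vehicle replicate 2 or liver sunitinib replicate 3 (adjusted p from 0.00217 to 0.0896 over 18 alternatives). The shares called in these groups were 5.56% of circadian, 4% of insulin and glucose, 5.88% of growth hormone and 5.26% of acute phase genes, beside 3.95% of all genes tested. Of 22 hypoxia-inducible genes 0 passed by limma and 8 had an unadjusted p under 0.05.

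The other fat depots give values beside these for description only, without a test. Trem2 had effects of −1.68 in eWAT, −0.79 in inguinal white fat and −0.06 in brown fat, and Hmcn2 of −1.50, −1.39 and −0.43 in the same order. Lep stood at −1.01 in eWAT, −1.36 in inguinal white fat and −1.21 in brown fat. Mest stood at −0.74, −1.07 and −0.14. Median effects of the collagen list were −0.49 in eWAT, −0.63 in inguinal white fat and −0.03 in brown fat, and those of the general macrophage list −0.74, −0.20 and −0.11. Irf8 and Lcp1 were lower in eWAT at −1.15 and −1.24 but had positive effects of 0.50 and 0.64 in inguinal white fat. In that depot the 5 T and B lymphocyte genes tested had a median effect of 2.71 and the 3 skeletal muscle genes tested one of −2.98, and the part of such cells in these values was not tested. Of the genes with a liver effect, Derl3 had an effect of 0.82 in inguinal white fat, beside 0.81 in liver.

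Some responses lie outside the comparison, because the gene had a mean under 3 in the other tissue or no value in its table. Fitted alone, eWAT had 363 called genes among 15526 (2.34%), of which 78 could not be compared, and liver had 24 among 12394 (0.194%), of which 5 could not. The eWAT fit over the 11831 shared genes called 630. Among those of eWAT with the smallest p were Adam8, Itgax, Mmp12 and Ctsk, all lower with sunitinib. Adam8, a metalloprotease of myeloid cells, was at 8.60 and 8.79 in sunitinib eWAT and 10.41 and 10.50 in vehicle eWAT, an effect of −1.76 ± 0.09 (adjusted p = 0.0121 in limma). Itgax, the integrin CD11c, had an effect of −1.53 ± 0.08, and Mmp12, the macrophage elastase, of −1.52 ± 0.08. The 5 of liver were Cyp7a1, Acot3, Hamp, Ngp and Slc16a5. Cyp7a1, which starts the classical route of bile acid synthesis, was at 7.81 and 7.90 in sunitinib liver and 9.34 and 9.71 in vehicle liver, an effect of −1.67 ± 0.11 (adjusted p = 0.000797 in limma). Hamp, which encodes the iron hormone hepcidin and is a BMP target, was at 12.94 and 12.69 in sunitinib liver and 11.69 and 11.68 in vehicle liver, an effect of 1.13 ± 0.09. Acot3, an acyl-CoA thioesterase, had an effect of −1.34 ± 0.09.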

How the data were processed

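Total RNA was sequenced from 4 tissues of the mice, and 8 of the 16 libraries, 2 per group, were compared here. The authors deposited regularized log2 (rlog) values, 1 table per tissue. The submitters' processing notes name DESeq2, bedtools, TopHat2 2.1.1 and bcl2fastq 2.17.1.14 as tools and mm9 as the genome build, with no role for each. How genes were annotated and counted, and whether by strand, is not given in the sources used here. The tables hold no counts or totals, so depth is unknown and no interval on counts can be given. rlog shrinks low genes toward their mean, by an amount that can differ between tables, so levels were never compared across tables.

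From these values, genes with a mean of at least 3 in both tables were kept (11831). Of these, 17 have symbols turned into dates. limma 3.58.1 (R 4.3.3) fitted 4 group means with an intensity trend. The contrast was the eWAT effect minus the liver effect, with Benjamini-Hochberg adjustment over all 11831 genes, a threshold of 0.05 and 4 residual degrees of freedom. Each tissue was also fitted alone. The fit was tested on simulated data in which the noise of each library was independent, so correlated deviations between libraries were not covered. Values are rlog for single libraries, effects ± SE in log2 units, and 2 libraries per group throughout. Unmapped sample columns numbered 0.

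Genes and gene groups were chosen with earlier results of these data known. Named genes are the 15 per direction with the largest called difference, up to 6 per group with the smallest p, the target kinases, genes called in both tissues, and up to 5 per tissue outside the comparison. Outside this rule, and chosen after their values were seen, are Apoe, Calr, Creld2, Cyp2a4, Cyp2a5, Cyp7b1, Dhcr7, Fasn, Krt8, Manf, Myh11, Nipal1, Srebf1, Upp2, Vsig4 and Xbp1. Alternatives were the filter, the normalization, the variance model, the replicate block and leaving out each library. Promoters came from RefSeq (GRCm38.p6), used for sequence only, since the files were made on mm9. The windows matched 8314 of the 11831 genes.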

Additional observations from a re-analysis of the deposited data

Results flagged for a closer look

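The effect of sunitinib differed between eWAT and liver, by a test of the difference itself, in 333 genes with a lower effect in eWAT and 134 with a higher one. The named genes among them have the following differences, eWAT effect minus liver effect on the log2 scale. Many of their calls were lost with a single library left out, as given above. Among macrophage and other leukocyte genes the difference was −1.69 for Trem2, −1.15 for Tyrobp, −1.22 for Lgals3, −1.37 for Cd68, −1.47 for Mpeg1, −1.31 for Clec12a, −1.13 for Irf8, −1.25 for Lcp1, −1.43 for Slc37a2, −1.43 for Rgs1, −1.35 for Myo1f, −1.34 for Lat2, −1.50 for Pik3ap1, −0.64 for Marco, −1.14 for H2-DMb1, −0.86 for S100a8 and −0.50 for S100a9. Among lysosome, lipid droplet, stress and interferon-stimulated genes it was −1.62 for Atp6v0d2, −0.52 for Atp6v1b2, −0.62 for Atp6v0a1, −0.81 for Lipa, −1.04 for Plin2, −1.28 for Atf3 and −0.56 for Ifi27l2a. Among proliferation genes it was −1.02 for Top2a, −0.67 for Cdk1, −0.52 for Birc5 and −1.17 for Mki67. Among matrix and vessel genes it was −0.93 for Col12a1, −0.75 for Col6a3, −0.83 for Col6a2, −0.54 for Col5a1, −0.79 for Col4a2, −0.58 for Col4a1, −0.69 for Hspg2, −0.77 for Sparc, −0.53 for Fbln2, −0.41 for Adamts5, 0.46 for Fbln1, 0.50 for Ogn, −1.54 for Hmcn2, −1.15 for Cd93 and 0.77 for Lyve1. Among adipocyte and lipid genes it was −1.42 for Lep, 1.55 for Cfd, −0.83 for Mest, −0.81 for Trp53inp2, −0.67 for Peg3, 1.43 for Thrsp, 1.33 for Scd1, 1.89 for Fads2, 0.71 for Acaca, 0.92 for Acacb, 0.71 for Mogat1, 0.69 for Acot2 and 0.60 for Acot4. Among glutathione and antioxidant genes it was 1.56 for Gsta4, 0.96 for Gstt1, 1.12 for Gsta3, 0.90 for Gpx3 and −0.45 for Sod3. Among ER genes it was −0.74 for Derl3, −0.69 for Syvn1, −0.88 for Hspa5, −0.72 for Creld2, −0.87 for Sdf2l1, −0.72 for Hyou1, −0.60 for Dnajb11, −0.62 for Manf and −0.56 for Calr. Among other genes with liver roles it was −0.73 for Id3, 0.76 for Nipal1, 0.75 for Cyp2a4, 0.73 for Cyp2a5, −0.51 for Cyp7b1, 0.68 for Upp2, 0.78 for Usp2, −0.78 for Gys2, −0.62 for Igfals, −0.88 for Lrg1 and 1.19 for Cyp2e1. Among epithelial and remaining genes it was 1.004 for Cldn7, 1.28 for Cd24a, 1.21 for Tmprss2, 1.31 for Cdh1, 1.56 for Krt19, −1.24 for Prps1, 1.35 for Net1, 1.48 for Ank3, 1.81 for Fam13a, 1.28 for Nt5e, 1.26 for Inmt and 1.28 for abParts. 

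Outside the genes compared, Crisp1, a gene of the epididymal duct, stood at rlog 12.66 in eWAT sunitinib replicate 1 and at 5.98 in eWAT sunitinib replicate 2, against 6.21 and 6.05 in vehicle eWAT.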

How the results depend on the processing

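The count of genes with a lower effect in eWAT was 333 as reported, 168 with a minimum mean of 5 and 556 with the spread estimated per tissue, an alternative chosen after seeing the data. The count of genes with a higher effect was 134 as reported, 406 with a replicate block within each tissue and 299 with the spread estimated per tissue. Lower genes were 71.3% of all calls as reported and 55.0% with the replicate block within each tissue. With 1 library left out, the lower count ranged between 127 and 403 and the higher count between 22 and 343, and the lone library of a group was assumed to vary like the other groups. Across 18 alternatives the 115 named genes kept direction and side of the threshold in 1730 instances, lost the call in 260, gained it in 42 and changed sign in 6. The sign changed for Tk1, whose difference was −0.023 with quantile normalization and between −0.042 and 0.077 with 1 library left out, and for Dhcr7, between −0.38 and 0.17 with 1 library left out. The cause of these changes was not tested.

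Replicate numbers pair no libraries by the labels, and the sunitinib liver libraries are numbered 3 and 4 in their titles but 1 and 2 in their descriptions, which the check and the blocks used. By these numbers, deviations correlated at 0.204 between the eWAT groups and 0.440 between the liver groups, at 0.120 and 0.110 between sunitinib eWAT and the sunitinib and vehicle liver groups, and at −0.0770 and −0.0793 between vehicle eWAT and the same groups. A replicate block across tissues gave 244 lower and 99 higher genes, and the block within each tissue 497 lower and 406 higher. Across tissues, 14 named genes lost their call (Adamts5, Atp6v0a1, Calr, Col6a2, Cyp7b1, Fbln1, Gys2, Igfals, Manf, Marco, Scd1, Sod3, Sparc and Usp2) and 3 gained it (Csf1r, Fasn and Smad9), and within each tissue 5 gained it (Apoe, Fasn, Idh2, Krt8 and Ndufb8). The groups of 2, the unknown depth and the rlog shrinkage of low genes limit all values, and small differences in low genes may not be detectable.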
